A study of Mus musculus with 12 samples.

Results

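The genes described here are 36 structural genes of the heart muscle fibre, chosen by name from the table of estimated counts: components of the thick filament, the thin filament, titin and the M-band, the Z-disc, and the desmin and intercalated-disc network. They are 36 of the 33615 gene symbols in the table. RNA from frozen mouse hearts was sequenced in bulk as 12 libraries, which form 3 groups of 4. Sham hearts were operated on without ischemia. I/R hearts had 30 min of ischemia and 2 h of reperfusion, and I/R + ML264 hearts had the same injury and were given ML264, a small molecule used to inhibit KLF5, a zinc-finger transcription factor of the Krüppel-like family. The labels give no strain, age, sex, batch, dose or time of ML264, and no group received ML264 without injury. Whether every library stands for a separate animal is not stated. The p-values here set a difference between groups only against the spread of libraries within the 3 groups together. That spread may be technical.

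The sarcomere is the contractile unit of striated muscle. Myosin thick filaments slide past actin thin filaments, calcium binding to the troponin complex switches the thin filament on, and titin spans from the Z-disc to the M-band as a molecular spring. The Z-disc anchors thin filaments of neighbouring sarcomeres through alpha-actinin and carries LIM-domain and nexilin-type proteins that bear and sense load. Desmin filaments and Xin-repeat proteins link the Z-discs to each other and to the intercalated disc, where heart muscle cells join end to end.

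The libraries held 22.26 to 29.93 M estimated counts each, and mitochondrially encoded transcripts took 35.2% to 41.1% of them. The 36 genes together took 8.73% to 9.40% of the counts in Sham, 8.09% to 9.38% in I/R and, with ML264, 8.65% to 10.2%, most of it from titin. Markers of heart muscle cells outside the sarcomere (14 genes) summed to 13567 to 16387 CPM (counts per 1 M, scaled by TMM factors) over the 12 libraries. The 10 atrial markers summed to 38.9 to 101 CPM over the libraries, with 5 of the 10 below the filter on low counts and Sln and Gm933 at 0 throughout. The 12 skeletal muscle markers summed to 282 to 429 CPM, with 9 of the 12 below the filter and Pvalb at 0 throughout. Ckm, which passed, is also on the list of heart muscle cell markers, so that sum does not measure skeletal muscle alone. The Y-linked transcripts Ddx3y, Eif2s3y, Kdm5d and Uty summed to 153 to 160 CPM in 8 libraries and to 17.9 to 24.0 CPM in the others. The 8 libraries were all 4 of Sham, I/R 2 and 3, and I/R + ML264 3 and 4, so the low level occurred only in injured hearts. In bulk tissue, fewer cells of a type and less RNA per cell cannot be told apart.

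Transcript IDs did not carry the same values from library to library, and this limits what can be said of isoforms. Myh7b, a slow-type myosin heavy chain, has 3 transcripts in the table, and in each library a single one held 94.1% to 97.8% of its counts. That value stood under Myh7b-201 in 7 libraries and under the other IDs in the rest. The same was seen across the table. Among 357 genes with 2 transcripts, at least 200 counts in each library and a largest share of 85% or more (the median over libraries), pairs of libraries had the largest value under the same ID in 49.4% of genes, where a random order gives 1 in 2. For the 282 such genes with 3 transcripts the figure was 33.2% against 1 in 3, and for the 235 with 4 it was 24.8% against 1 in 4. The size of the largest share was steady all the same, with a median SD over the 12 libraries of 1.17, 1.59 and 2.10 percentage points. Of the 32 members with 2 or more transcripts and at least 100 counts in each library, 0 kept the largest value under one ID in all 12 libraries. Sums over the transcripts of a gene do not depend on the IDs. Their median SD between replicates on the log2 CPM scale was 0.147 for 4891 genes with 2 or more transcripts and 0.160 for 779 genes with 1, between 10 and 1000 CPM. All levels below are therefore gene sums, and transcript shares are given by rank within a library and never by ID.

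**Figure D1:**
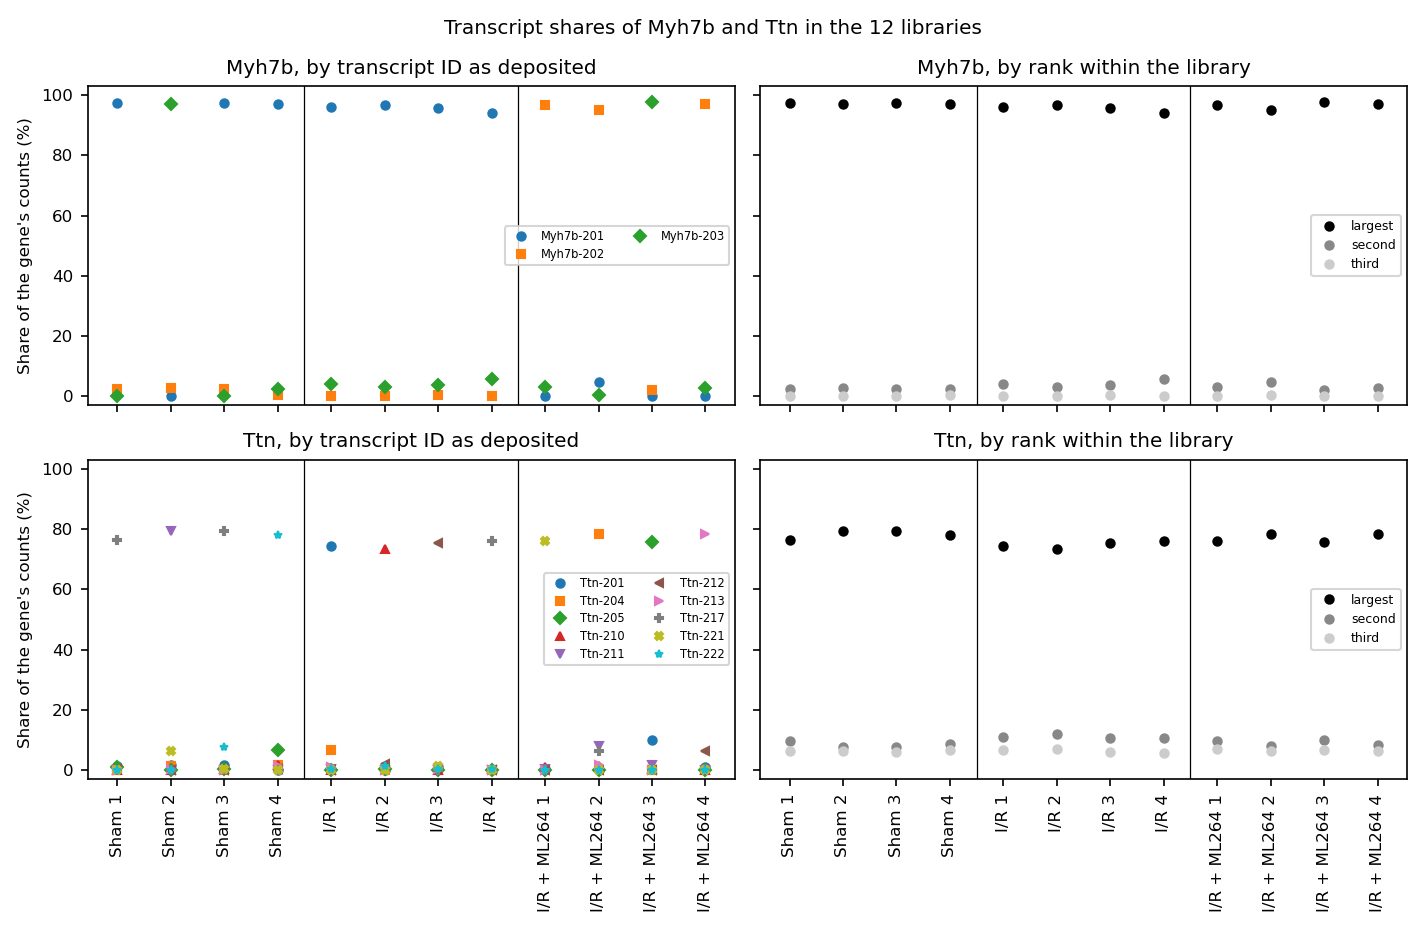
Share of a gene's counts (%) held by each transcript of Myh7b (top) and Ttn (bottom) in the 12 libraries, under the deposited IDs (left, IDs reaching 20% in any library) and by rank within the library (right). The largest value moves from ID to ID on the left, while its size stays between 94.1% and 97.8% for Myh7b and between 73.2% and 79.3% for Ttn on the right.

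Per length, the levels of the members differed widely. Levels between genes are compared as CPM per kb of the longest coding transcript in the annotation (GENCODE M21), since the IDs do not show which transcript was expressed. Tnnt2, cardiac troponin T, which ties the troponin complex to tropomyosin, had the highest level, with 4002 CPM per kb in Sham, 5092 in I/R, and 4461 with ML264. Actc1, cardiac alpha-actin of the thin filament, came next at 2336, 2058 and 2272. Myl2, the ventricular regulatory light chain of myosin, and Ttn followed at 655 and 663 CPM per kb in Sham, a difference smaller than their spread. Among the Z-disc genes, Myoz2 (calsarcin-1, a calcineurin-binding protein) was highest at 310 CPM per kb in Sham. Xirp2, a Xin-repeat protein of the intercalated disc, led the last group with 167. Obsl1, obscurin-like 1, a cytoskeletal adaptor that binds titin and myomesin at the M-band, was the lowest of the members that passed the filter on low counts, at 2.48 CPM per kb in Sham and 1.83 in I/R.

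The filter left out 2 members, Myl4 and Myl7, the atrial essential and regulatory light chains. Myl4 had 1 to 23 counts in each of the 12 libraries. Myl7 had 6 counts, all in I/R + ML264 library 1, and 0 in the other libraries, and a count of 0 leaves room for 3 counts, which is 0.1002 to 0.1348 CPM (counting error only). The comparisons below are on the other 34 members. Reads of Ankrd23 and Tmod1 could be shared with a neighbour in the annotation: 78.0% of the 31-base words of Ankrd23 transcripts also occur in Gm42417 or another gene, and 31.9% of those of Tmod1, mainly in Tstd2. Their values are uncertain for that reason. The shared part was 6.5% or less for every other member.

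**Figure D2:**
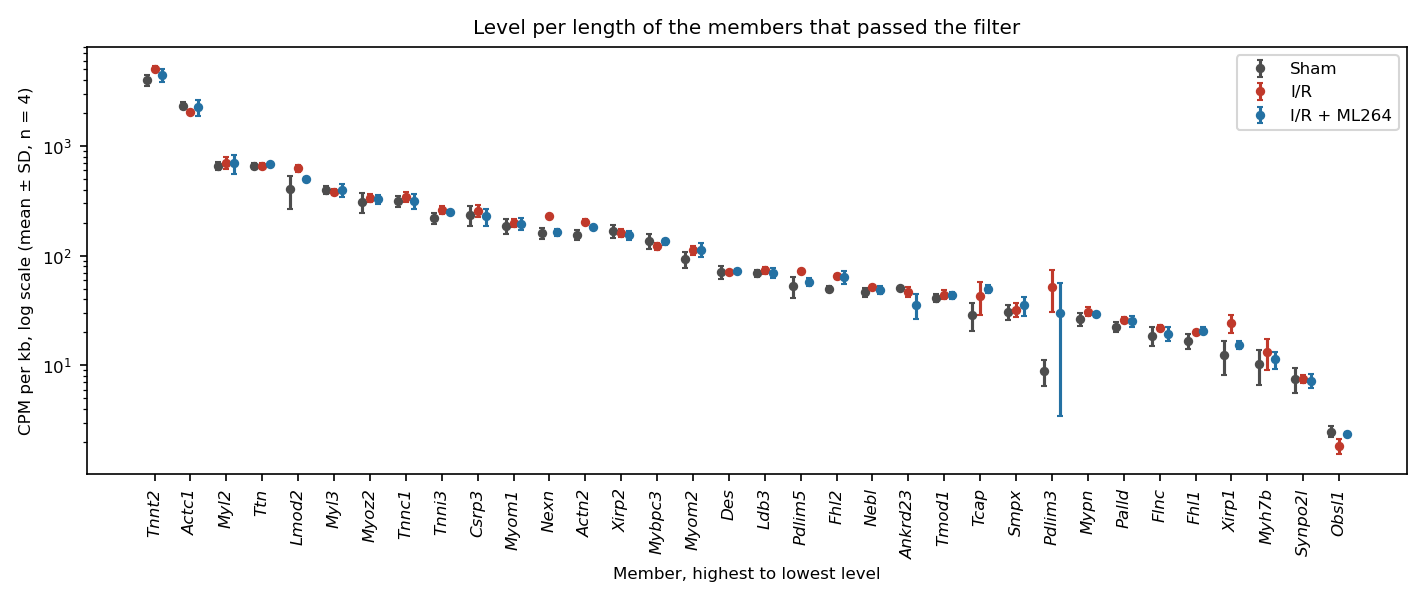
Level per length of the 34 members that passed the filter, in CPM per kb on a log axis, as mean ± SD of 4 libraries for Sham (grey), I/R (red) and I/R + ML264 (blue). Tnnt2 and Actc1 lie above all others, Obsl1 lies lowest, and Pdlim3 shows the widest distance between groups.

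The first comparison, I/R against Sham, addresses the effect of the injury. Of the 34 members tested, 8 (23.5%) had an adjusted p under 0.05 (edgeR quasi-likelihood test, Benjamini-Hochberg over all 15952 genes), where 7.75% of all genes tested did. The members were chosen with earlier results of these data known. The contrast with all genes, here and below, therefore describes this list and does not test it. Of these, 7 rose (20.6%, beside 4.58% of all genes): Pdlim3, Xirp1, Nexn, Pdlim5, Actn2, Fhl2 and Tnnt2. Obsl1 was the 1 member that fell, beside 3.17% of all genes. Of the 7 that rose, 4 belong to the Z-disc scaffold. The median log2 fold change over the 34 members was 0.14, where that over all genes tested was 0.00. For 9 members (26.5%, beside 15.8% of all genes) the CPM of the 4 I/R libraries lay wholly above or below that of the 4 Sham libraries. They were the 8 called members and Actc1, of which 7 were higher in I/R (beside 8.54% of all genes) and 2, Obsl1 and Actc1, lower (beside 7.25%).

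Pdlim3, the actinin-associated LIM protein (ALP) that binds alpha-actinin at the Z-disc, showed the widest difference. It stood at 14.7, 18.8, 9.83 and 12.97 CPM in the 4 Sham libraries and at 96.9, 53.0, 58.5 and 126 CPM in I/R. In I/R + ML264 the values were 21.5, 110, 37.2 and 22.1 CPM. Every I/R library exceeded every Sham library, and I/R + ML264 library 2 lay with I/R while its other 3 libraries lay between the groups. The log2 fold change of I/R against Sham was 2.57 ± 0.59 (SE), a 5.95-fold rise, with an adjusted p of 0.0305. The gene lies on chromosome 8 from 45885461 to 45919548 (GRCm38, plus strand).

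Nexn encodes nexilin, an actin-binding protein of the Z-disc and junctional membrane. Its values were 487, 396, 384 and 377 CPM in Sham, 594, 604, 588 and 581 in I/R, and 414, 465, 414 and 385 in I/R + ML264. The I/R libraries lay close together (SD 9.89 CPM) and above all 8 others, and the other groups overlapped. I/R exceeded Sham by 0.53 ± 0.08 on the log2 scale, with an adjusted p of 0.0017, the smallest of the members. Nexn lies on chromosome 3 from 152236982 to 152266350 (GRCm38, minus strand).

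Actn2, sarcomeric alpha-actinin, the cross-linker of actin at the Z-disc, was at 483, 483, 394 and 502 CPM in Sham. It was at 585, 586, 649 and 638 in I/R and at 534, 570, 535 and 542 in I/R + ML264. The 3 groups did not overlap, with I/R + ML264 in the middle. Actn2 rose by 0.40 ± 0.08 in log2 from Sham to I/R, with an adjusted p of 0.00594. Actn2 lies on chromosome 13 from 12269426 to 12340760 (GRCm38, minus strand).

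Pdlim5, the enigma homolog that scaffolds protein kinases to the Z-disc, was at 343, 230, 213 and 272 CPM in Sham. I/R libraries held 378, 371, 361 and 355 CPM and I/R + ML264 libraries 263, 317, 295 and 278. Sham library 1 came close to the I/R range and the other Sham libraries did not. From Sham to I/R the log2 rise was 0.47 ± 0.12, with an adjusted p of 0.0228. Pdlim5 lies on chromosome 3 from 142239590 to 142395696 (GRCm38, minus strand).

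Xirp1, the Xin-repeat actin-binding protein of the intercalated disc, was at 100, 61.6, 43.8 and 81.1 CPM in Sham and at 158, 110, 130 and 169 in I/R. In I/R + ML264 it was at 99.0, 90.8, 89.6 and 80.3, within the Sham range. The log2 fold change of I/R against Sham was 0.99 ± 0.23, a 1.98-fold rise, with an adjusted p of 0.0275. Xirp1 lies on chromosome 9 from 120013755 to 120023598 (GRCm38, minus strand).

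Fhl2, a LIM-only adaptor that binds titin and moves between the sarcomere and the nucleus, was at 77.4, 84.5, 74.7 and 74.9 CPM in Sham. It was at 95.2, 102, 108 and 101 in I/R and at 85.3, 118, 101 and 94.6 in I/R + ML264. All 8 libraries of injured hearts, treated or not, lay above all Sham libraries. Fhl2 rose by 0.39 ± 0.09 in log2 from Sham to I/R, with an adjusted p of 0.0162. Fhl2 lies on chromosome 1 from 43123074 to 43196984 (GRCm38, minus strand).

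Tnnt2 was at 4863, 5471, 4052 and 4821 CPM in Sham and at 5780.04, 6003, 6442 and 6214 in I/R. The I/R + ML264 libraries held 4761, 5617, 6239 and 4794 CPM and overlapped both other groups. Tnnt2 rose by 0.35 ± 0.10 in log2 from Sham to I/R, with an adjusted p of 0.0394. Tnnt2 lies on chromosome 1 from 135836354 to 135852260 (GRCm38, plus strand).

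Obsl1 was at 15.3, 11.95, 13.7 and 15.5 CPM in Sham, at 8.46, 9.55, 11.6 and 11.9 in I/R, and at 13.02, 14.1, 13.4 and 12.7 in I/R + ML264. The highest I/R library (11.94) and the lowest Sham library (11.95) nearly met. Obsl1 fell by 0.44 ± 0.13 on the log2 scale in I/R against Sham, with an adjusted p of 0.0429. Obsl1 lies on chromosome 1 from 75479310 to 75506452 (GRCm38, minus strand).

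**Figure D3:**
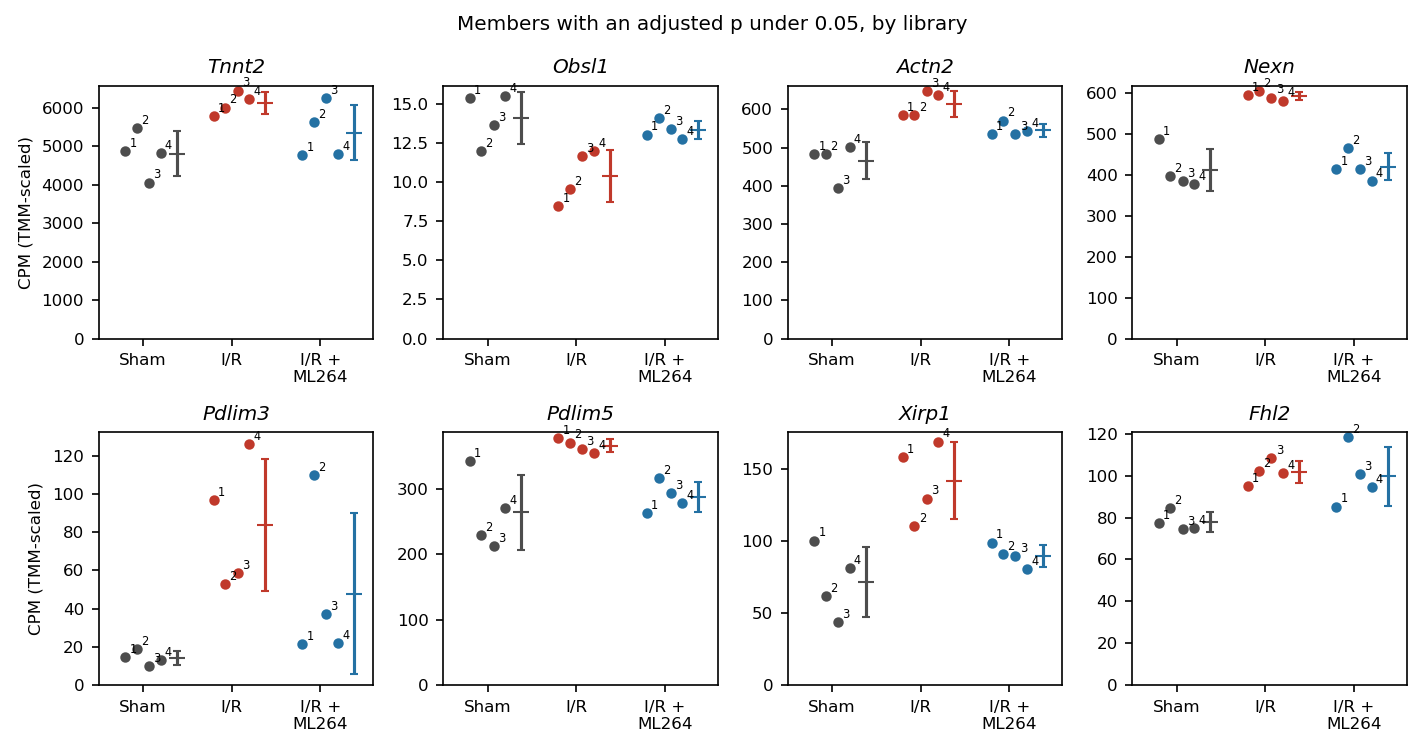
Level of the 8 members with an adjusted p under 0.05, in TMM-scaled CPM. Points are libraries, numbered by replicate, and the bar beside each group is the mean ± SD (n = 4). I/R libraries lie above all Sham libraries for 7 genes and below them for Obsl1, and I/R + ML264 library 2 has the highest value of its group for 5 of the 7 that rose.

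How firmly each call stands differed. Sham library 3 had the lowest CPM of its group for 25 of the 34 members and for 6 of the 7 that rose. Nexn and Actn2 kept an adjusted p under 0.05 in every alternative run, including each of the 12 fits that leave out a library (at most 0.0108 and 0.0207 there). Fhl2 kept it in 11 of those 12 fits, the exception being the one without Sham 4 (0.0519). Xirp1 kept it in 8, Pdlim3 and Pdlim5 in 6, Tnnt2 in 5 and Obsl1 in 4. The fits without an I/R + ML264 library drop no library of the groups compared and hardly moved the log2 fold changes. Among the fits that drop a Sham or I/R library, Tnnt2 kept its call only without Sham 2. Pdlim3 kept it only without I/R 2 or I/R 3, and Pdlim5 only without Sham 1 or I/R 3. Xirp1 kept it without Sham 1, Sham 3, I/R 2 or I/R 3, and Obsl1 without Sham 2, I/R 3 or I/R 4. Calls over all genes also became fewer in the fits that called the fewest members. With all libraries, 8 members and 1236 of all genes were called. Without Sham 4 the number of members called was 2 (703 genes) and without I/R 1 it was 3 (927 genes). Without Sham 3 or I/R 4 it was 4 (659 and 694 genes), and without Sham 2 it was 5 (738 genes). With the Y-linked transcripts as a covariate 3 members and 448 genes were called. With Arntl, a clock gene whose level varied within groups, it was 3 members and 649 genes. Among libraries with high Y-linked transcripts (4 Sham and 2 I/R), the log2 ratio of mean CPM was 1.99 for Pdlim3, 0.74 for Xirp1, 0.54 for Nexn, 0.47 for Pdlim5, 0.43 for Fhl2, 0.41 for Actn2, 0.37 for Tnnt2 and -0.41 for Obsl1. No Sham library had low Y-linked transcripts, so the other 2 I/R libraries have no Sham counterpart.

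Promoter windows that hold a motif match are shown for 4 called members, since these genes moved in the same comparison. Motifs of factors known to act in heart muscle were searched on both strands. The motifs were the CArG box bound by serum response factor, the MCAT element GGAATG bound by TEAD factors, the GGGNGTGG box of Krüppel-like factors, the AP-1 site TGANTCA and the MEF2 box. RefSeq promoters (GRCm38.p6) were found for 32 of the 36 members and for 6 of the 8 called. Nexn and Xirp1, both called, and Tcap and Myom2 had none, so no promoter of these genes was searched. Obsl1 had no match to any of the motifs, Pdlim3 had MCAT matches only outside the window extracted, and the second RefSeq promoter of Pdlim5 had no match in its window, so none of these is printed. Fhl2 and Tnnt2 each had another promoter whose window lay within annotated exons and is not printed. That of Fhl2 held a CArG box at -96 to -87 and a MEF2 box at -31 to -22 from the start site. The sequences below run 5′ to 3′ on the gene's strand, end at the base before the RefSeq start site or at the edge of an annotated exon, and have the motif match in capitals. They are Fhl2 at chr1:43163962-43164061 (minus strand, a CArG box), Tnnt2 at chr1:135836234-135836333 (plus strand, MCAT on the opposite strand), Pdlim5 at chr3:142395697-142395796 (minus strand, Krüppel-like box) and Actn2 at chr13:12340761-12340832 (minus strand, Krüppel-like box).
Fhl2: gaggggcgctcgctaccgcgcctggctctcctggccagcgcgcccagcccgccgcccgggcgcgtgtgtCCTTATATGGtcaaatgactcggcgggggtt
Tnnt2: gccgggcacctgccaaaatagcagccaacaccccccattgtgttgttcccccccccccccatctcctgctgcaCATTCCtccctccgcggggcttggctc
Pdlim5: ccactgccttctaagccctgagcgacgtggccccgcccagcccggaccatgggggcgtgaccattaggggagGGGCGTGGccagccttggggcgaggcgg
Actn2: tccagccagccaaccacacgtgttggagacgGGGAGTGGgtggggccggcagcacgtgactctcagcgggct

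Within the 250 bases upstream of the start site, a CArG box was present in 10 of the 47 promoters of members, from 8 genes (Actc1, Fhl1, Fhl2, Ldb3, Myl3, Myl7, Myom1 and Nebl), and in 1.47% of all 32851 promoters. The MEF2 box was present in 7 of the 47 and in 2.92% of all. The MCAT element stood in 11 of the 47 (12.64% of all) and the AP-1 site in 4, from 3 genes (6.75% of all). The Krüppel-like box stood in 8, a share near the 15.87% of all. Overlapping promoters of Ldb3 hold the same CArG box and the same AP-1 site, which are counted in each. Matches of one motif did not overlap those of another in the sequences shown. Of the 8 genes with a CArG box, Fhl2 was called in I/R against Sham, and Myl7 has a box but no more than 6 counts. A match describes letters in a window and not a bound site.

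The members not called are described by role. Beside the counts by role, 7.75% of all genes tested were called by edgeR and 11.2% by DESeq2. At an unadjusted p under 0.05 edgeR had 23.2% of all genes. The roles hold few members each, and a difference between roles was not tested. In the thick filament, 0 of the 4 members tested were called by edgeR, DESeq2 or limma voom, 0 had an unadjusted p under 0.05, and their median log2 fold change was 0.02. Myl2 was at 576, 601, 520 and 634 CPM in Sham and at 622, 543, 609.8 and 724 in I/R, with I/R + ML264 at 653, 559.8, 768 and 493. The groups overlapped. Myh7b was at 0.36 ± 0.29, Myl3 (the ventricular essential light chain) at -0.06 ± 0.09 and Mybpc3 (myosin-binding protein C, which tunes cross-bridge cycling) at -0.17 ± 0.10 on the log2 scale.

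In the thin filament, 1 of 7 members was called, Tnnt2 (beside 7.75% of all genes), and the median was 0.15. Lmod2, leiomodin-2, which elongates thin filaments at their pointed ends, lay just outside the threshold. Its values were 1123, 574, 578 and 899 CPM in Sham, 1252, 1108, 1333 and 1277 in I/R and 960.4, 961, 1044 and 1022 in I/R + ML264. Sham libraries 1 and 4 were the higher ones, and Sham 1 reached the I/R range. The log2 fold change of I/R against Sham was 0.65 ± 0.19 with an adjusted p of 0.0604, and 0.00411 by the DESeq2 Wald test. Tnni3, the inhibitory troponin subunit, was at 0.26 ± 0.08 (adjusted p = 0.0728) and Tnnc1, the calcium-binding subunit, at 0.13 ± 0.11. Nebl (nebulette) and Tmod1 (tropomodulin-1, the pointed-end cap) were at 0.15 ± 0.08 and 0.10 ± 0.08. Actc1 was at 3247, 3310.3, 3402 and 3807 CPM in Sham and at 2902, 3052, 2979 and 3193 in I/R. All I/R libraries lay below all Sham libraries, with a log2 fold change of -0.18 ± 0.10 and an adjusted p of 0.27.

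Of the 4 titin and M-band members, Obsl1 alone was called (beside 7.75% of all genes) and titin was not. Ttn took 6.99%, 7.54%, 7.01% and 7.43% of the counts in the Sham libraries, 7.43%, 6.60%, 6.68% and 6.23% in I/R, and 8.10%, 8.08%, 6.96% and 6.90% in I/R + ML264. After TMM scaling its log2 fold change of I/R against Sham was 0.00 ± 0.08. Values of 1 M or more are written with 3 significant digits in the table, which rounds the largest Ttn transcript. The M-band myomesins Myom1 and Myom2 were at 0.09 ± 0.11 and 0.27 ± 0.11, and neither was called.

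In the Z-disc scaffold, 4 of 12 members were called, all higher (beside 4.58% of all genes). Every one of the 12 had a log2 fold change above 0, as 50.3% of all genes had, with a median of 0.23, although that of Synpo2l (0.01 ± 0.15) turned negative with upper-quartile factors. With Arntl as a covariate 9 of the 12 were above 0, and without Sham library 3, 11, with a median of 0.15. Myoz2 was at 439.8, 313, 284 and 426 CPM in Sham, at 367, 365, 429 and 432 in I/R and at 371, 338, 424 and 403 in I/R + ML264, with all groups overlapping. Tcap (telethonin, the cap on titin's Z-disc end) was at 34.7, 22.2, 18.8 and 33.7 CPM in Sham and at 28.0, 30.4, 53.1 and 51.0 in I/R. Its log2 fold change of 0.57 ± 0.25 was not called (adjusted p = 0.205), and I/R 3 and 4 stood apart from I/R 1 and 2. Flnc (filamin C) was at 0.24 ± 0.13, Mypn (myopalladin) at 0.22 ± 0.09, Palld (palladin) at 0.20 ± 0.09, Csrp3 (muscle LIM protein) at 0.13 ± 0.16, Myoz2 at 0.12 ± 0.13 and Ldb3 (ZASP or cypher) at 0.10 ± 0.08.

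Among the stress-linked, intermediate filament and intercalated disc genes, 2 of 7 were called, Xirp1 and Fhl2 (beside 7.75% of all genes). The median was 0.07. Des, desmin, was at -0.01 ± 0.08. Xirp2, the near relative of Xirp1, was at 2217, 1750.4, 1759 and 2260.1 CPM in Sham and at 2086, 2041, 1761 and 1818 in I/R, a log2 fold change of -0.05 ± 0.10. Xirp1 and Xirp2 thus had values of different sign, although their difference was not tested. Fhl1 was at 0.27 ± 0.10 (adjusted p = 0.0991), Smpx (small muscle protein) at 0.07 ± 0.14 and Ankrd23, a titin-binding ankyrin-repeat protein, at -0.11 ± 0.14.

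**Figure D4:**
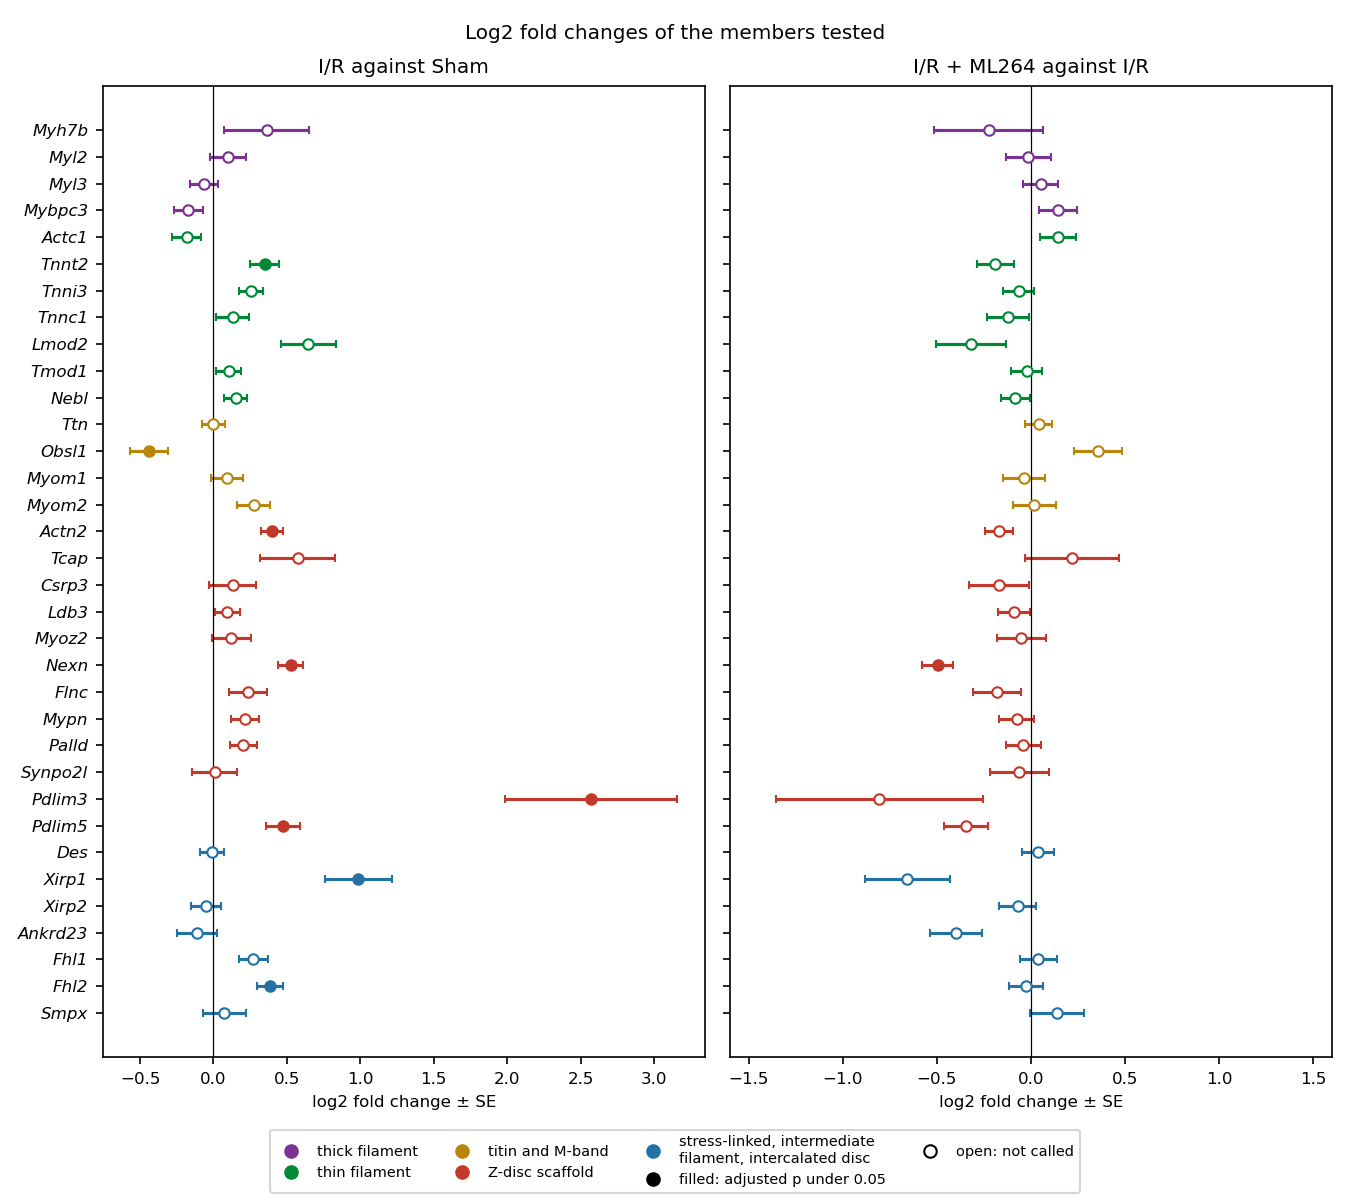
Log2 fold change ± SE of the 34 members tested, in the order of their roles, for I/R against Sham (left) and I/R + ML264 against I/R (right). Filled points have an adjusted p under 0.05. All 12 Z-disc members lie at or to the right of 0 on the left, and Nexn is the 1 filled point on the right. The panels share the I/R libraries and have different horizontal scales.

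Other genes of the fibre were read from lists written together with the members. Beside the calls below, 4.58% of all genes tested rose in I/R against Sham and 3.17% fell. Of 26 other sarcomere genes measured, 5 rose in I/R and 0 fell, with a median log2 fold change of 0.13. Pdlim7 (enigma, of the same PDZ-LIM family as Pdlim3 and Pdlim5) rose by 1.13 ± 0.23, Pdlim1 by 0.84 ± 0.19 and Csrp1, a relative of Csrp3, by 0.68 ± 0.15. The other 2, named after their values were seen, were Ablim1 (0.28 ± 0.08) and Nrap (0.27 ± 0.08). Of 27 genes of assembly, chaperones and turnover, 2 were called, a share near the 7.75% of all genes. They were Bag3 (0.46 ± 0.10), the co-chaperone that clears damaged filamin, and Dnajb6 (0.41 ± 0.10), both higher. Of 25 costamere and intercalated disc genes, edgeR called 0, with 6 at an unadjusted p under 0.05 (beside 23.2% of all genes). DESeq2 called 2 (beside 11.2% of all genes), and limma voom called 2 (beside 1438 of all genes). Of 14 cardiac transcription factors, Gata6 (0.76 ± 0.16) and Tbx20 (0.35 ± 0.09) rose. Of 12 splicing factors of sarcomere transcripts, 2 rose, Rbm24 (0.58 ± 0.13) and Mbnl2 (0.31 ± 0.07).

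Some markers of other cells were called in the same comparison, where 4.58% of all genes tested rose and 3.17% fell. Neutrophil markers rose for 4 of 8 measured (Clec4d, Clec4e, Trem1 and, named after its value was seen, Mmp9), and the sum of all 11 on the list ran from 5.32 to 7.89 CPM in Sham, from 10.2 to 25.6 in I/R and from 5.82 to 23.3 in I/R + ML264. S100a8, S100a9 and Ly6g, defining genes of that cell, did not pass the filter. Of 10 endothelial markers, Kdr and Tek fell and Esam rose, with sums of 568 to 616 CPM in Sham, 462 to 536 in I/R and, with ML264, 448 to 549.7. Of 11 smooth muscle and pericyte markers 1 fell, Pdgfrb, with sums of 1862 to 1974 CPM in Sham, 1814 to 2025 in I/R and, with ML264, 1629 to 1886. Of 10 macrophage markers 1 fell, Adgre1, with sums of 106 to 181, 104 to 129 and 100.4 to 134 CPM. Fibroblast (10), erythroid (6), ventricular (5), atrial (5 measured) and skeletal muscle (3 measured) markers had 0 calls in edgeR. At an unadjusted p under 0.05 it had 3, 0, 0, 0 and 1 of them, beside 23.2% of all genes. DESeq2 called 1, a fibroblast marker (beside 11.2% of all genes), while limma voom called 0. Of the 14 heart muscle markers outside the sarcomere, 1 rose, Trdn (0.38 ± 0.07), which encodes triadin of the calcium release unit. The part of these cell types in the members' changes was not tested.

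The comparison of I/R + ML264 with I/R addresses the effect of the inhibitor after injury. Nexn was lower and was the 1 member of 34 with an adjusted p under 0.05 (2.94%), where 0.0502% of all genes tested, 8 genes, passed (0.0125% higher and 0.0376% lower). Its log2 fold change was -0.50 ± 0.08 with an adjusted p of 0.0347, from 592 ± 9.89 CPM in I/R to 420 ± 33.5 CPM in I/R + ML264 (SD, n = 4), and it was lower in 4 of 4 libraries. The I/R libraries are the same ones as in the comparison with Sham, so the pair of Nexn results is not independent. The call held in 3 of the 12 fits that leave out a library, those without Sham 1, Sham 3 or I/R + ML264 2. In the other 9 the adjusted p reached up to 0.185. The fits without a Sham library drop no library of the groups compared. Among the fits that do, the call held only without I/R + ML264 2 (adjusted p = 0.0192 in edgeR). The adjusted p was 0.0643 with the replicate block. The log2 fold change itself stayed between -0.55 and -0.46 in those 12 fits. Among the libraries with high Y-linked transcripts the log2 ratio of mean CPM was -0.58, and among those with low ones it was -0.42.

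For 6 members (17.6%, beside 5.62% of all genes) the I/R + ML264 and I/R libraries did not overlap in CPM. With ML264, 5 were lower (Lmod2, Actn2, Nexn, Pdlim5 and Xirp1, beside 3.08% of all genes) and 1 was higher (Obsl1, beside 2.54%). Beside Nexn, the log2 fold changes were -0.66 ± 0.23 for Xirp1, -0.35 ± 0.12 for Pdlim5, -0.32 ± 0.19 for Lmod2, -0.17 ± 0.08 for Actn2 and 0.36 ± 0.13 for Obsl1. Their adjusted p ran from 0.303 to 0.591, so none of these 5 passed the test. Pdlim3 was at -0.81 ± 0.55, since I/R + ML264 library 2 (110 CPM) lay within the I/R range. Without that library it was at -1.63 with an adjusted p of 0.116. Tnnt2 was at -0.19 ± 0.10 and Fhl2 at -0.03 ± 0.09. The median over the 34 members was -0.06, and it was -0.13 over the 12 Z-disc members, where that of all genes was 0.00. Across the 4 thick filament members the values ran from -0.23 to 0.14. Of the 183 genes measured on the other lists, edgeR called 0 in this comparison and 0 in that with Sham. At an unadjusted p under 0.05 it had 20 and 30 of them, beside 1659 and 2074 of all 15952 genes. By adjusted p, limma voom called 0 in both. DESeq2 called 2 and 4, shares near the 0.999% and 2.32% of all genes.

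The comparison of I/R + ML264 with Sham addresses what separated treated injured hearts from uninjured ones. Of the 34 members, 0 had an adjusted p under 0.05, where 0.288% of all genes, 46 genes, did (0.257% higher and 0.0313% lower). At an unadjusted p under 0.05 edgeR had 8 of the 34 members and 2074 of all 15952 genes. By adjusted p, limma voom called 0 members and DESeq2 called 3, Tcap, Ankrd23 and Fhl2, beside 2.32% of all genes. For 5 members (14.7%, beside 7.37% of all genes) the groups did not overlap, 4 of them higher (beside 3.99%) and 1 lower (beside 3.37%). Fhl2 was higher at 0.36 ± 0.09 (adjusted p = 0.114), Actn2 at 0.23 ± 0.08 (0.201), Tcap at 0.79 ± 0.25 (0.219) and Pdlim3 at 1.77 ± 0.57 (0.231). Without I/R + ML264 library 2 the value for Pdlim3 was 0.94 (adjusted p = 0.481). Ankrd23 was lower at -0.51 ± 0.14 (adjusted p = 0.139).

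Ankrd23 was the member with the tightest Sham group, at 114.0, 115, 115 and 116 CPM. It was at 101, 106, 97.5 and 121 CPM in I/R and at 105, 69.9, 58.5 and 88.3 in I/R + ML264, where all libraries lay below Sham. Tcap, at 47.0, 43.3, 53.1 and 45.7 CPM in I/R + ML264, lay above all Sham libraries there. Nexn and Xirp1 stood at 0.03 ± 0.08 and 0.33 ± 0.23 against Sham, neither called.

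**Figure D5:**
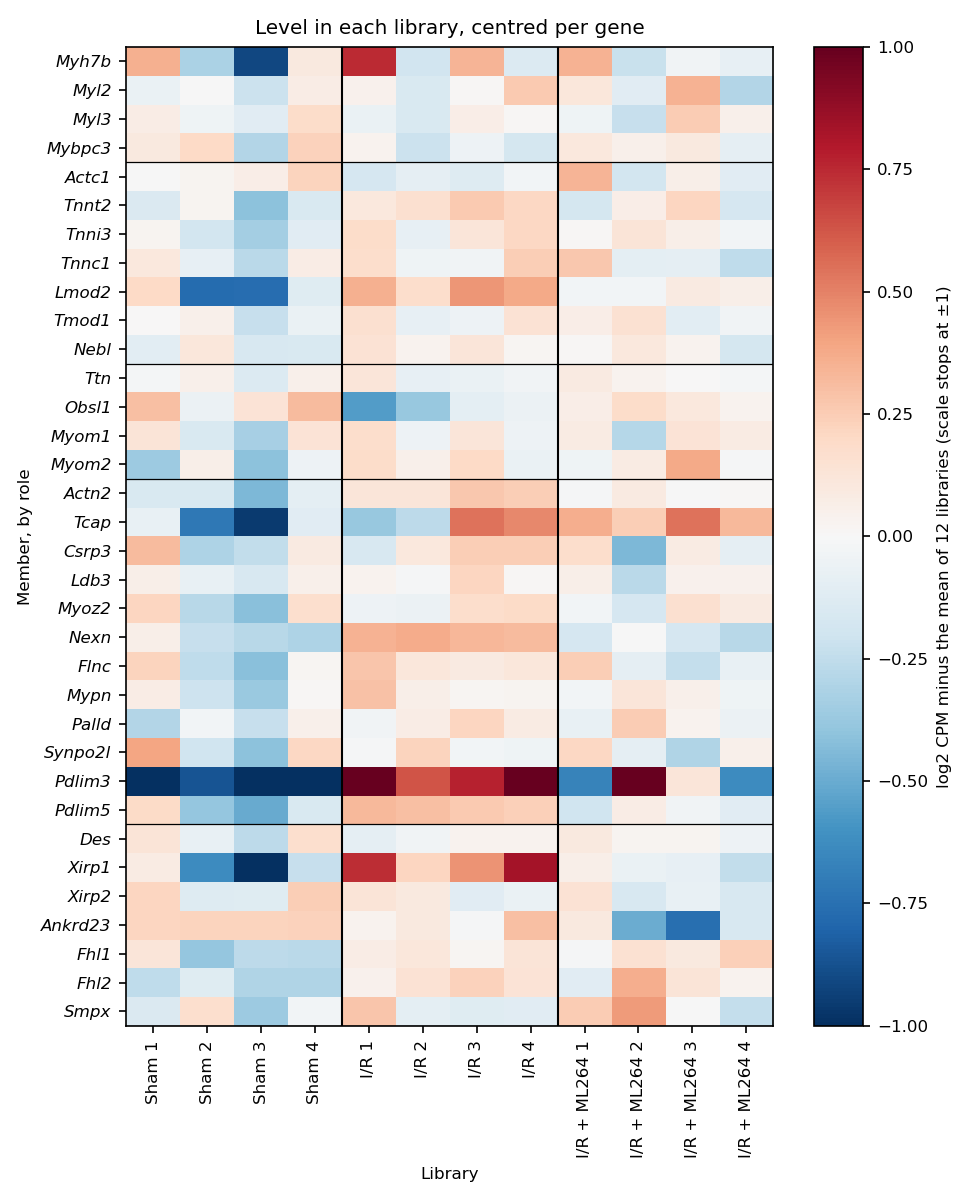
Level of the 34 members in each of the 12 libraries, as log2 CPM minus the gene's mean over the libraries (colour scale from -1 to 1, values beyond shown at the end colour), with rows by role and vertical lines between groups. Sham library 3 is the lowest of its group for 25 members, the I/R columns are red for Nexn, Pdlim3, Pdlim5 and Xirp1, and I/R + ML264 library 2 is the one of its group that is dark red for Pdlim3.

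Transcript shares were tested as designed, by ID, although the IDs do not match between libraries. Of 48151 transcripts, 0 changed in share in any of the 3 comparisons (edgeR diffSpliceDGE, adjusted p under 0.05), with 2558, 2649 and 2542 at an unadjusted p under 0.05, and limma voom with diffSplice called 91, 113 and 81. For the 208 member transcripts, 11, 17 and 21 had an unadjusted p under 0.05. Given the moving IDs, these tests carry no information on isoforms. The share of the largest transcript, whatever its ID, was therefore tested with limma on its log2 odds, an analysis added after the data were seen. It called 6 of 12435 genes (0.0483%) in I/R against Sham, 2 (0.0161%) in I/R + ML264 against I/R and 0 in I/R + ML264 against Sham. Leaving out 1 library moved the first count between 0 (without Sham 4, I/R 3 or I/R 4) and 11 (without I/R + ML264 3), the second between 0 (without I/R 3) and 7 (without I/R + ML264 2), and the last between 0 and 3 (without I/R 4). Of the 32 members tested, limma called 0, with 3, 2 and 1 at an unadjusted p under 0.05. Of all genes tested, 10.1%, 6.87% and 7.10% were, so these counts are near or below the background. Xirp1 is among the 3 and among the 2 (unadjusted p = 0.00142 and 0.0266 in limma). Its largest share was 100% in every library, so its log2 odds followed the count of the gene and not a share. The counts over all genes may include genes of that kind.

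Described by rank, the members fell into those with a single dominant transcript and those with several. The largest share had a median of at least 85% in 13 members, among them Actc1, Mybpc3, Mypn, Xirp1 and Xirp2 at 98.9% or more in every library. Nexn was the most divided, with 24.1% to 28.4% in its largest transcript, and Tnnt2, known for developmental splicing, had 39.5% to 46.0%. In neither did I/R leave the range of Sham by much, at 24.1% to 26.6% against 24.97% to 28.0% for Nexn.

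The ranges of I/R and Sham parted in Myl2, Ttn, Myom1, Myh7b, Pdlim3 and Mybpc3. How often they part over all genes was not counted, so this list is descriptive only. For Myh7b the largest share was 97.1% to 97.5% in Sham and 94.1% to 96.7% in I/R. Pdlim3 had 55.3% to 59.27% in Sham and 59.30% to 64.0% in I/R, and Mybpc3 had 98.9% to 99.14% and 99.15% to 99.4%. The largest share of Myl2 was 82.4%, 84.5%, 82.6% and 70.3% in Sham, 94.1%, 89.8%, 93.7% and 91.1% in I/R and 85.2%, 90.4%, 77.9% and 92.0% in I/R + ML264. It was higher in all I/R libraries than in all Sham libraries, by 1.55 ± 0.45 in log2 odds, with an adjusted p of 0.288 in limma, so it was not called. The largest share of Ttn was 76.5% to 79.3% in Sham and 73.2% to 76.2% in I/R, and the next one 7.51% to 9.57% and 10.6% to 11.9%. In I/R + ML264 the largest was 75.5% to 78.4%. The difference in the largest share of Ttn was -0.28 ± 0.21 in log2 odds, with an adjusted p of 0.703. For Myom1 the share was 58.9% to 69.5% in Sham and lower in every I/R library, at 45.4% to 55.7%. With ML264 it was 57.5% to 80.5% (adjusted p = 0.566 for I/R against Sham). A rank cannot show an exchange between transcripts of like size.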

How the data were processed

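The authors deposited 1 table of estimated counts per transcript for 12 libraries, not normalized and not pooled. Per the submitters' processing notes it was made with FastQC and kallisto on GRCm38 (mm10). The versions were not given in the sources used here. Per the labels' protocols the libraries were made with Nextera XT, which does not mark strand, so reads of overlapping genes cannot be told apart. Here the counts were summed per gene symbol, rounded, and filtered with filterByExpr (minimum of 10 counts), which left 15952 genes. All groups entered a single edgeR 4.0.16 quasi-likelihood fit (R 4.3.3, TMM, biological coefficient of variation 0.205), and a called gene has a Benjamini-Hochberg adjusted p below 0.05. Errors are SE for log2 fold changes and SD for CPM. In all 18 pairs, replicates differed by more than counting noise (chi-square per gene of 7.36 or more). Reads had no molecular identifiers.

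All members are named. The rule gave values in every library to called members and to the highest per length of each role, and took up to 3 called genes from each other list by smallest adjusted p. Further members shown library by library were chosen after their values were seen. The members and lists were chosen with earlier results of these data known. Transcripts are given by rank, since the IDs moved. Gene lengths come from GENCODE M21, which gave all 225 member transcripts the same symbol. The alternatives were RLE and upper-quartile factors, DESeq2 1.42.0, limma 3.58.1 voom, other filters, only the groups compared, a replicate block, 2 covariates, no mitochondrial genes, and leaving out each library. The scripts were tested on simulated data.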

Additional observations from a re-analysis of the deposited data

Results flagged for a closer look

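In groups of 4 libraries, 6 of 102 checks of a member's CPM found 1 library far from the other 3, where chance gives about 5%. I/R library 1 was high for Flnc (216 CPM, the others 190.0 to 194), Mypn (184, the others 152 to 156) and Smpx (42.4, the others 32.1 to 32.7). I/R library 2 was high for Synpo2l (37.5 CPM, the others 31.3 to 32.0). I/R + ML264 library 2 was low for Myom1 (895 CPM, the others 1150.0 to 1197) and for Ldb3 (301, the others 372 to 376). None of these 6 genes was called by edgeR in any of the 3 comparisons.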

How the results depend on the processing

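In the comparison where it was called, no called member changed sign under any alternative run. Of the single-member results, 60 lost their call and 12 gained one, while 2274 stayed on the same side of the threshold. Sign was not compared for results called in neither fit. Some of these changed sign, as Synpo2l did in I/R against Sham with upper-quartile factors. In I/R against Sham, 448 genes and 3 members were called with the Y-linked covariate, and 649 and 3 with Arntl. Upper-quartile factors called 1296 genes, 620 higher and 676 lower, beside 731 and 505 with TMM. Leaving out 1 library gave 659 to 1485 genes and 2 to 8 members, with 738 genes without Sham 2, 659 without Sham 3, 703 without Sham 4 and 694 without I/R 4. In I/R + ML264 against I/R, genes called were 153 with DESeq2, 22 with no filter and 1 with the replicate block, which called 0 members. Leaving out 1 library gave 0 to 85 genes and 0 to 1 members, with 0 genes without I/R + ML264 1 and 85 without I/R + ML264 2. In I/R + ML264 against Sham, genes called were 370 with DESeq2, 27 with voom, 78 with no filter, 27 with only the groups compared, 19 with the replicate block, 15 with the Y-linked covariate and 12 with Arntl. DESeq2 called 3 members. Leaving out 1 library gave 9 to 101 genes and 0 to 2 members, the fewest genes without Sham 3 or 4 and the most without I/R + ML264 1. For transcript shares by ID, limma voom diffSplice called 91, 113 and 81 transcripts, and edgeR 0 in each fit that left out 1 library. The largest share called 0 genes in each comparison with the replicate block, and 4, 0 and 3 with only the groups compared. The cause of these differences was not tested.

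The replicate block called 1009 genes and 6 members in I/R against Sham. Libraries with the same number did not deviate together (correlation -0.11 to 0.097 over 12 pairs), and 1 of 12 libraries correlated best with its own number, so the numbers were not taken as pairs. The correction for transcript length was not run, since IDs do not match between libraries. Depth limits Myl4 and Myl7, which did not pass the filter.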
